A study of Mus musculus with 3 samples.

Results

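The cytoplasmic ribosomal protein genes encode the proteins of the small and large subunits of the 80S ribosome. Members were the symbols that start with Rpl or Rps and a digit, plus Rplp0, Rplp1, Rplp2 and Rpsa, without pseudogene symbols holding -ps and without the S6 kinases, and with at least 50 unique molecular identifiers (UMIs, one per captured RNA molecule) over the 3 libraries. The rule gave 83 members among 32285 genes, 34 with small-subunit and 49 with large-subunit symbols. The symbol rule also takes in Rps19bp1, a binding partner of Rps19, and Rpl7l1, a relative of Rpl7 that acts in ribosome assembly. Neither is a standard part of the mature ribosome. Just outside the minimum were Rpl3l with 33 UMIs, Rpl39l with 15 and Rpl10l with 0, and just inside were Rps19bp1 with 363 and Rps27rt with 383.

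Nuclei of mouse lacrimal gland were profiled with droplet 3′ sequencing in 3 libraries, with 1 library for each group. The control library came from healthy mice, labelled normal control. The scopolamine library came from mice with dry eye made by scopolamine, a muscarinic receptor blocker, together with dry stress. The tamsulosin library came from dry eye mice that were also given tamsulosin, an alpha-1 adrenergic receptor blocker. Strain, age, sex, dose and the number of animals in each library were not given in the sources used here. The extraction notes speak of sorting red fluorescent nuclei for a plate or a droplet method, without naming a source of the fluorescence, and which libraries were sorted is unclear. With 1 library for each group there is no replicate error and no test between groups. Intervals below are 95% exact intervals that cover counting error only.

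Ribosomal protein mRNAs are among the most abundant mRNAs of the cytoplasm, where they are translated to keep up with the need for new ribosomes. In a secretory gland this need is high, because tear proteins are made by the acinar cells in bulk. Mature ribosomal protein mRNA leaves the nucleus, whereas the long noncoding RNA Malat1 stays in it, so the number of ribosomal protein UMIs per Malat1 UMI is used in preparations of nuclei as a sign of cytoplasmic RNA. Translation of many of these mRNAs is controlled through a run of pyrimidines that begins with a C at the very start of the transcript, the 5′ terminal oligopyrimidine motif, which the mTORC1 pathway and the RNA-binding protein Larp1 act on.

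Start sites are a property that the symbol rule did not use, and a minority of the members hold a common motif there. RefSeq promoter windows on GRCm38.p6, which run from 250 bases before to 50 after a start, were found for 63 of the 83 members. Printed below are 6 members with many UMIs and 1 listed start. They hold the letters CTTTC, given in capitals, within 15 bases of that start on the sense strand. They need not be the 6 such members with the most UMIs. After them come Rpl7l1 and Rps19bp1, which do not hold CTTTC and were picked for contrast after their values were seen. Each run is 30 bases, 5′ to 3′ on the strand of the gene, and its last 15 bases are the annotated start of the transcript.
Rpl27a: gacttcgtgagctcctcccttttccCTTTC
Rpl13: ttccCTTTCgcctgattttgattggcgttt
Rpl38: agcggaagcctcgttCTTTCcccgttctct
Rplp2: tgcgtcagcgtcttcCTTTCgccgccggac
Rps26: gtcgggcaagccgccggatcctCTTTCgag
Rps10: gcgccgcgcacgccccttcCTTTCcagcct
Rpl7l1: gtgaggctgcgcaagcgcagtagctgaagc
Rps19bp1: cagggcggaagtagctcgccgcgtgtgggc
On the plus strand, the run of Rpl27a lies at chr7:109519180-109519209, that of Rpl13 at chr8:123102335-123102364, that of Rpl38 at chr11:114668565-114668594 and that of Rplp2 at chr7:141447636-141447665. On the minus strand, Rps26 lies at chr10:128626492-128626521, Rps10 at chr17:27635230-27635259, Rpl7l1 at chr17:46782642-46782671 and Rps19bp1 at chr15:80264292-80264321. In Rpl38 and Rplp2 the first base of CTTTC is the annotated first base of the transcript. In Rpl13 it lies 11 bases before the annotated start.

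CTTTC on the sense strand within this 30-base window occurred in 17 of 63 members, or 27.0%, against 4.76% of 27025 genes with a window. On the opposite strand the share was 4.76% of members and 4.21% of all genes. The letters CCGGAAG, which resemble the binding motif of ETS factors, occurred on either strand of the whole 300-base window in 25 of 63 members, or 39.7%, against 9.93% of all genes. These background genes were not limited to those with at least 50 UMIs, as the members were. A match is a description of letters and not a shown site, and annotated starts can differ from the starts used in this gland. The members lie on 19 chromosomes, with 14 of them on chromosome 7. They are short genes, with a median span of 3289 bp and 95.2% of them under 10 kb, where the 16079 genes with at least 50 UMIs and an annotated span had a median of 23856 bp.

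Before the results, the libraries differed in depth and in abundant RNA. After the filters, 6780 control, 9205 scopolamine and 10864 tamsulosin nuclei were kept, with medians of 2318, 1732 and 3361 UMIs. No barcode had fewer than 1492 UMIs in control, 967 in scopolamine and 1534 in tamsulosin. A list of 15 secretory genes, such as the mucin-like gene Mucl2 and the odorant-binding protein gene Obp1a, took 6.04% of control, 25.7% of scopolamine and 32.8% of tamsulosin UMIs. Mitochondrially encoded genes took 0.237%, 0.335% and 0.919%. In all, 87 barcodes were shared by a pair of libraries. Myoepithelial-like, macrophage-like and T or NK-like nuclei had all of their 12, 14 and 12 listed markers at least 2-fold above the other compared classes. Cluster 6 had all 12 fibroblast markers at least 2-fold higher, but its 10 leading genes hold none of them and 1 gene of the B cell list, Ebf1, so it is called by its number and its leading genes, Lama2 and Slit3. The acinar-like class was weaker, with 17 of 25 markers higher and 0 at least 2-fold higher, and it is what remained of the secretory epithelium after the other names.

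Ribosomal protein UMIs were lowest in control, higher in scopolamine and highest in tamsulosin. Over all kept nuclei the 83 members together took 0.307% of UMIs in control (95% interval 0.305 to 0.309%), 0.440% in scopolamine (0.438 to 0.442%) and 0.841% in tamsulosin (0.839 to 0.844%). The scopolamine share was 1.44 times that of control, and the tamsulosin share was 1.91 times that of scopolamine. Malat1 took 3.25%, 3.40% and 2.76% of UMIs in the same order. There were therefore 9.44 ribosomal protein UMIs per 100 Malat1 UMIs in control, 12.9 in scopolamine and 30.5 in tamsulosin. The ratio to Malat1 put the libraries in the same order as the share of UMIs.

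All 7 classes compared, 6 named ones and cluster 6, followed the order of the libraries. Acinar-like nuclei had ribosomal protein shares of 0.294% in control, 0.440% in scopolamine and 0.661% in tamsulosin. Myoepithelial-like nuclei, from cells that squeeze the acini, had 0.349%, 0.442% and 0.946%. Nuclei of cluster 6 had 0.274%, 0.315% and 0.870%.

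Endothelial-like nuclei, which line the vessels, had 0.382%, 0.492% and 1.06%. The shares of T or NK-like nuclei were 0.331%, 0.551% and 0.980%, and those of B or plasma-like nuclei 0.303%, 0.526% and 1.04%. Macrophage-like nuclei had 0.461%, 0.471% and 0.930%. In macrophage-like nuclei the control and scopolamine intervals overlapped, at 0.448 to 0.474% and 0.460 to 0.482%.

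With tamsulosin among the libraries, the library made a larger difference than the class. Scopolamine over control alone did not, from 1.02 times (macrophage-like) to 1.74 times (B or plasma-like) within a class. Across the 7 classes, the highest share was 1.68 times the lowest in control, 1.75 times in scopolamine and 1.60 times in tamsulosin. Within a class, the highest library was between 2.02 times (macrophage-like) and 3.45 times (B or plasma-like) the lowest. The 1.02, the 1.68 and the 2.02 all rest on 1 control macrophage-like barcode with 30.1% ribosomal protein UMIs. Without the nuclei of at least 4% ribosomal protein UMIs, the classes of control spanned 1.40 times, and the libraries spanned from 2.24 times (acinar-like) to 3.45 times, with 3.13 times in macrophage-like nuclei. Of the 7 classes, cluster 6 was lowest in control and in scopolamine, and acinar-like nuclei in tamsulosin. Clusters 9, 20 and 22 scored for duct markers but are not compared as a class, because the 10 leading genes of cluster 20 hold 0 duct markers and 1 acinar marker, Fut9. Cluster 20 also had 14 duct markers raised, and its mean log2 duct score of 1.35 was the highest of the clusters. Acinar-like clusters 7, 16 and 18 likewise hold 0 acinar markers among their 10 leading genes. Together, clusters 9, 20 and 22 had 0.238% in control, below the 7 classes, 0.390% in scopolamine and 0.802% in tamsulosin. With them the classes of control would span more than the values above. Since nuclei of 1 library share their preparation, the classes are not replicates of the library.

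**Figure D1:**
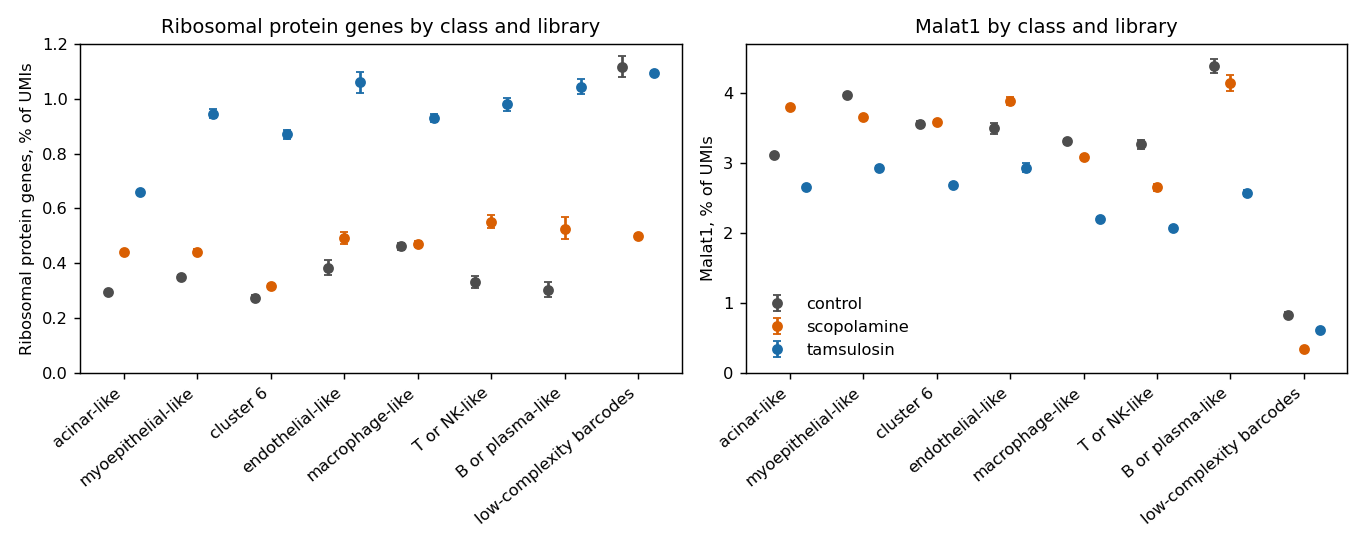
Percent of all UMIs taken by the 83 ribosomal protein genes (left) and by Malat1 (right) in 6 named classes, cluster 6 and low-complexity barcodes, with 1 point for each library and bars for the 95% exact interval. Each of the 7 classes has its highest ribosomal protein share in tamsulosin, between 0.661 and 1.06%, and its lowest Malat1 share there as well.

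As a share of all UMIs, Malat1 was lowest in tamsulosin in each of the 7 classes. This was not so in the clusters that scored for duct markers, at 4.01%, 5.40% and 4.60%. The totals hold the secretory list, which took 5.72%, 19.5% and 24.7% of acinar-like UMIs in control, scopolamine and tamsulosin. Malat1 shares of totals without that list are not given here. In acinar-like nuclei Malat1 took 3.11% of UMIs in control, 3.79% in scopolamine and 2.65% in tamsulosin. Against Malat1, the ribosomal protein UMIs of acinar-like nuclei numbered 9.46, 11.6 and 24.97 per 100. Macrophage-like nuclei had 13.9, 15.3 and 42.3 per 100, with Malat1 at 3.30%, 3.09% and 2.20%. Without nuclei of at least 4% ribosomal protein UMIs the control value was 8.97 per 100. Across the 7 classes the ratio ran from 6.90 to 13.9 per 100 in control, from 8.79 to 20.8 in scopolamine and from 24.97 to 47.4 in tamsulosin. Within these 7 classes the range of tamsulosin did not overlap with the other 2. The clusters that scored for duct markers, which are not among the 7, had 5.94, 7.23 and 17.4 per 100. Their tamsulosin value lay inside the scopolamine range of the 7 classes. Without nuclei of at least 4% ribosomal protein UMIs the control range ended at 10.96. Neat1, another nuclear noncoding RNA, stood at 4463, 3666 and 2494 CPM in acinar-like nuclei, where CPM is UMIs per 1000000 UMIs.

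Among acinar-like nuclei, those with 1 to 2% Malat1 had a larger ribosomal protein share than those with 4 to 5% in each library. Acinar-like control nuclei with 1 to 2% Malat1 had 0.383% ribosomal protein UMIs, and those with 4 to 5% had 0.247%. The corresponding values were 0.586% and 0.345% in scopolamine and 0.813% and 0.490% in tamsulosin. In all 6 Malat1 ranges from 1% upward the order of the libraries was control, scopolamine, tamsulosin. The decrease with Malat1 was not even in tamsulosin, where the 49 nuclei of 5 to 6% had 0.553%. Over all kept nuclei the relation was not one-way below 1% Malat1, where the share was 0.498% in scopolamine and 0.860% in tamsulosin, beside 0.593% and 1.15% at 1 to 2% Malat1. Control had 1.79% and 0.417% in these ranges, with 37 nuclei below 1%. Over all kept nuclei, the rank correlation of the ribosomal protein share with the Malat1 share was -0.10 in control (6780 nuclei), -0.22 in scopolamine (9205 nuclei) and -0.31 in tamsulosin (10864 nuclei). Within low-complexity barcodes it was -0.10 (51), 0.40 (501) and 0.56 (2763). For these correlations each share was taken of the UMIs of the nucleus without those of the other share. Both denominators still come from the same nucleus, and the nuclei of a library share 1 preparation.

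**Figure D2:**
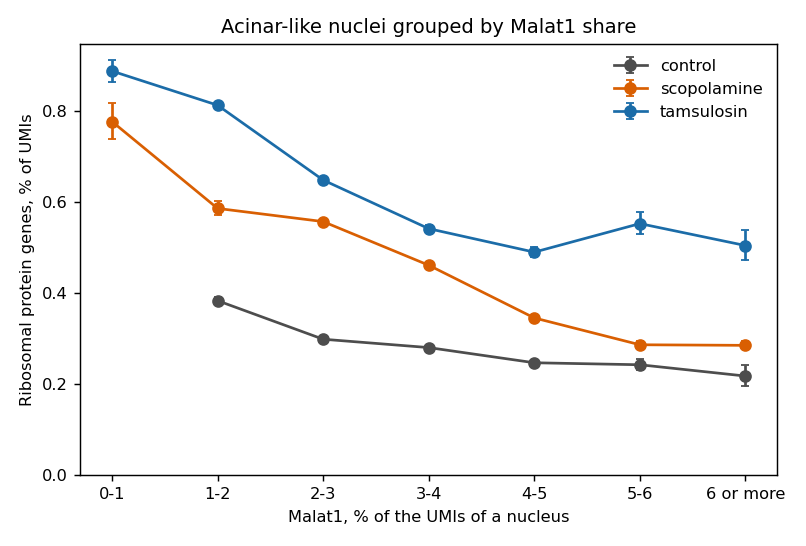
Percent of UMIs taken by the ribosomal protein genes in acinar-like nuclei, grouped by the Malat1 share of the nucleus, with 95% exact intervals and 1 line for each library. The share falls from 0.383 to 0.217% in control between the 1 to 2% and the 6% or more groups, and the 3 lines do not cross.

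Secretory RNA stood in the same order of libraries as the ribosomal protein share, and mitochondrial RNA did so only in some classes. Over the 7 classes the secretory list took 5.17 to 8.87% of UMIs in control, 13.2 to 26.5% in scopolamine and 24.7 to 37.3% in tamsulosin, although most of these classes do not make tear proteins. In macrophage-like nuclei, all 14 secretory genes other than Lyz2, which macrophages also make, had UMIs in each library, and together they took 6.10%, 17.9% and 27.9%. Mitochondrially encoded genes ranged from 0.147 to 0.843% of UMIs over the classes in control, from 0.206 to 0.679% in scopolamine and from 0.420 to 1.24% in tamsulosin. In 3 of the 7 classes their share was lower in scopolamine than in control, at 0.679% against 0.843% in myoepithelial-like, 0.300% against 0.545% in endothelial-like and 0.250% against 0.263% in macrophage-like nuclei, while the ribosomal protein share was higher. In tamsulosin it was the highest of the 3 libraries in each of the 7 classes. Per nucleus, the rank correlation of the ribosomal protein share with the secretory share was 0.34 in control, 0.75 in scopolamine and 0.81 in tamsulosin. The part of free RNA or of attached cytoplasm in the ribosomal protein share was not tested.

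Low-complexity barcodes show the ratio to Malat1 at its highest. These 3 clusters detect few genes for their depth. Clusters 13 and 14 are led by secretory genes, and cluster 2, which holds 49 of the 51 control barcodes, by Gm14743, Gm42418, Gm19951, Camk1d, Cmss1 and Lars2, followed by mitochondrial genes. Their ribosomal protein shares were 1.12% in control (51 barcodes), 0.4997% in scopolamine (501 barcodes) and 1.10% in tamsulosin (2763 barcodes). Malat1 was low in all 3, at 0.828%, 0.337% and 0.601%, and the ratio came to 135, 148 and 182 ribosomal protein UMIs per 100 Malat1 UMIs. The secretory list took 48.3%, 76.5% and 65.5% of their UMIs. Without these barcodes the shares over the kept nuclei were 0.299%, 0.432% and 0.773%.

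A handful of barcodes carried ribosomal protein RNA far above the rest. Of the 26849 kept nuclei, 51 had at least 4% ribosomal protein UMIs, 3 in control, 14 in scopolamine and 34 in tamsulosin, where the medians were 0.288%, 0.567% and 0.967%. The highest was a control barcode in the macrophage-like cluster with 1791 ribosomal protein UMIs among 5959, or 30.1%. It held 80 of the 83 members, among them Rps7 with 70 UMIs and Rpl32 and Rpl21 with 62 each. It also held 67 UMIs of Fau, which encodes a ribosomal protein fused to a ubiquitin-like protein, 55 of Tpt1 and 51 of Eef1a1, while Actb and Tmsb4x were at 0 and Malat1 was at 0.789%. This barcode gave 35.8% of the ribosomal protein UMIs of control macrophage-like nuclei, and without it their share was 0.298% (95% interval 0.287 to 0.308%) in place of 0.461%.

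Without the 51 nuclei, macrophage-like nuclei stood in the same order, and the intervals no longer overlapped. Their shares were then 0.298%, 0.471% and 0.930%, and scopolamine stood 1.58 times above control (95% interval 1.52 to 1.65) in place of 1.02 times. The ratios of scopolamine to control in the other compared classes were then 1.48 in acinar-like nuclei, 1.24 in myoepithelial-like nuclei, 1.15 in cluster 6 and 1.67 in nuclei of the T or NK-like class. For tamsulosin over scopolamine they were 1.51, 2.18, 2.76 and 1.78, and 1.98 in macrophage-like nuclei.

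The difference between scopolamine and control changed with the depth of the nuclei. Among acinar-like nuclei of 1500 to 2000 UMIs, the ribosomal protein share was 0.320% in control (2331 nuclei) and 0.758% in scopolamine (414 nuclei), 2.37 times higher. Among those of 3000 to 5000 UMIs, it was 0.365% and 0.390%, a ratio of 1.07 (95% interval 1.04 to 1.10). Among those of 5000 to 10000 UMIs, it was 0.297% and 0.305%, a ratio of 1.03. In acinar-like nuclei of 10000 UMIs or more the order was turned, with 0.245% in control and 0.215% in scopolamine, a ratio of 0.877 (95% interval 0.858 to 0.896).

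In acinar-like nuclei tamsulosin stayed above both other libraries at every depth they shared. This was not so in macrophage-like nuclei of 5000 to 10000 UMIs, with 0.651% in tamsulosin and 1.18% in control, where the control barcode with 30.1% lies. Without it control had 0.313% (29 nuclei). The tamsulosin shares of acinar-like nuclei were 1.66%, 1.33%, 0.905%, 0.619% and 0.377% from the 1500 to 2000 UMI range upward. Against control the ratio went from 5.18 in the shallowest of these ranges to 1.54 in the deepest. In numbers of molecules, tamsulosin acinar-like nuclei held on average 29.2 ribosomal protein UMIs at 1500 to 2000 UMIs and 67.7 at 10000 UMIs or more. Control nuclei held 5.44 and 51.3, and scopolamine nuclei 13.02 and 38.5. Shallow tamsulosin nuclei thus held more ribosomal protein UMIs on average than control nuclei of 5000 to 10000 UMIs, which held 20.7.

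**Figure D3:**
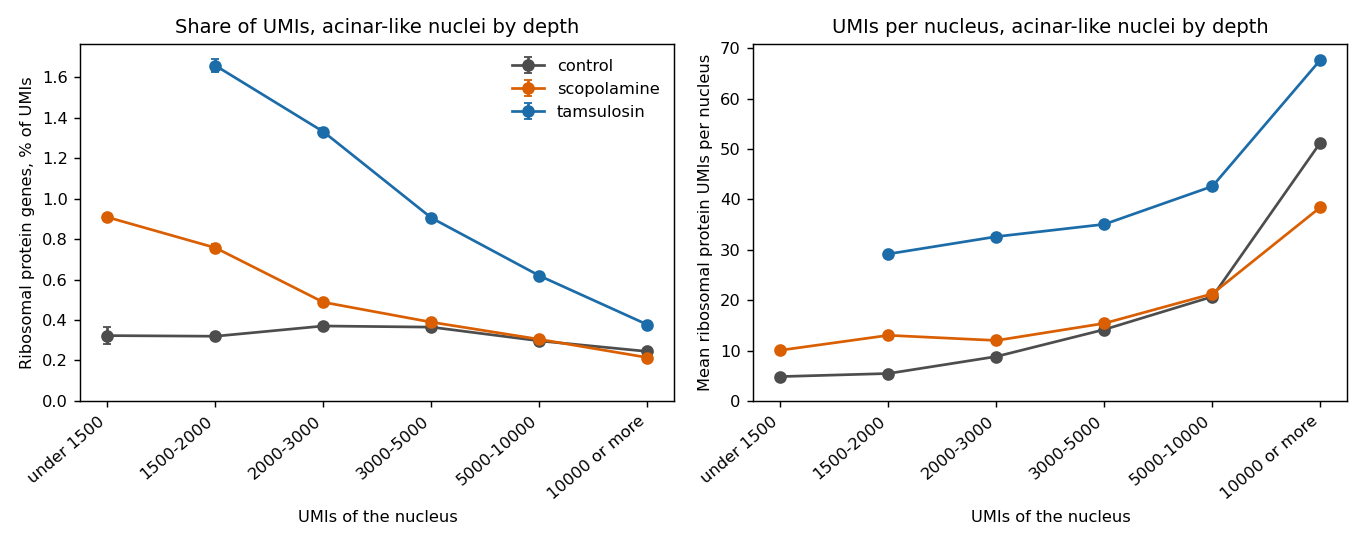
Ribosomal protein share of UMIs with 95% exact intervals (left) and mean ribosomal protein UMIs per nucleus (right) in acinar-like nuclei, grouped by the UMI total of the nucleus. Control lies between 0.245 and 0.371% and is lowest at 10000 UMIs or more. Scopolamine falls from 0.909% and comes within 1.07 times of control at 3000 to 5000 UMIs, and tamsulosin falls from 1.66 to 0.377% and stays highest.

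The same split appears between acinar-like clusters. Different clusters held most acinar-like nuclei of each library, numbers 3 and 4 in control, 16 and 17 in scopolamine and 18 and 1 in tamsulosin. Scopolamine nuclei of cluster 17 (3838 nuclei, median 1081 UMIs) had a share of 0.822% with 2.95% Malat1. Those of cluster 16 (1588 nuclei, median 5150.5 UMIs) had 0.286% with 4.32% Malat1. Control nuclei of clusters 3 and 4 had 0.256% and 0.355%, and tamsulosin nuclei of clusters 18 and 1 had 0.624% and 1.31%. Ribosomal protein genes were kept out of the genes used for clustering. Rps3, Rpl17 and Rpl37a were nonetheless among the 10 leading genes of cluster 17 against the other clusters. Cluster 20 had 0.259% in 14 control, 0.357% in 361 scopolamine and 0.8004% in 2994 tamsulosin nuclei.

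When every nucleus was thinned to 1000 UMIs, so that each nucleus counted equally, the members gave on average 3.33 UMIs in control, 6.32 in scopolamine and 11.2 in tamsulosin nuclei. At that depth 93.4%, 98.0% and 99.8% of nuclei held at least 1 ribosomal protein UMI, and 22.6%, 61.2% and 88.5% held at least 5. Thinning left out 713 scopolamine nuclei, and 0 in the other libraries. Without thinning, 99.5% of control nuclei and all nuclei of the other libraries held 1 or more.

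The members kept a similar order of levels in every library. Levels are in CPM, and because 3′ ends are counted they do not scale with transcript length. Over all kept nuclei the median member stood at 34.5 CPM in control, 45.2 in scopolamine and 86.9 in tamsulosin. Rplp1, an acidic protein of the stalk that recruits elongation factors, led in each library with 103, 167 and 348 CPM. The 10 members with the most UMIs include Rplp1, Rpl41, Rps24, Rpl37a, Rps12, Rpl23, Rps29, Rpl35a and Rps27a, and together the 10 gave 23.8%, 25.7% and 27.0% of the ribosomal protein UMIs.

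Rpl41, the smallest protein of the large subunit, stood at 92.1, 146 and 277 CPM in control, scopolamine and tamsulosin. Rps24 of the small subunit stood at 80.3, 104 and 261, and Rpl37a, a zinc-binding protein of the large subunit, at 64.6, 134 and 219. Rps12 of the small subunit had 55.7, 90.4 and 212 CPM. For all of these the value in tamsulosin was more than that in scopolamine, and that in scopolamine more than that in control.

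Rpl23 of the large subunit stood at 48.9, 105 and 197 CPM. Rps29, a zinc-binding protein of the small subunit, had 42.9, 100 and 189. Rpl35a had 52.8, 90.2 and 188. Rps27a, made as a fusion with ubiquitin, had 47.1, 81.7 and 174. Of the 83 members, 79 stood in the order control, scopolamine, tamsulosin over all kept nuclei, beside 15.5% of the 16095 genes with at least 50 UMIs. In acinar-like nuclei 81 members did so, beside 14% of these genes.

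Fewer members kept this order in the other classes, with 71 in T or NK-like nuclei (background 9.72%), 62 in myoepithelial-like nuclei (11.9%), 56 in cluster 6 (15.5%) and 47 in macrophage-like nuclei (11.7%). In macrophage-like nuclei the count was 78 (12%) without nuclei of at least 4% ribosomal protein UMIs. The share of small-subunit members among ribosomal protein UMIs was close to level, at 42.2% in control, 40.1% in scopolamine and 42.1% in tamsulosin. UMIs assigned to the 5 pseudogene symbols came to 0.157%, 0.109% and 0.114% of those of members and pseudogenes together. How reads that fit both a member and a pseudogene copy were counted was not given in the sources used here.

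No member reached 3 times the median class in any class. Averaged over the libraries, the highest class of a member stood a median of 1.22 times above the median class, and at most 1.96 times, for Rps27rt, which had few UMIs. The highest class was endothelial-like for 31 members, B or plasma-like for 23, T or NK-like for 14 and macrophage-like for 13, and acinar-like and myoepithelial-like for 1 each. The first 2 of these classes are the smallest, with 43 endothelial-like and 49 B or plasma-like nuclei in control. The same counts over all genes are not given here, so they cannot be read as particular to the members.

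In acinar-like nuclei the members were compared 1 by 1, as log2 ratios of CPM + 5, from which the median over all genes with a mean of 20 CPM or more was taken off. That median was -0.27 for scopolamine against control and -0.11 for tamsulosin against scopolamine. For scopolamine against control, 56 of the 77 members that passed the 20 CPM minimum stood at least 1.5-fold higher and 0 were lower by that much. The background was 7.14% of 5758 genes higher and 3.47% lower. The 6 members under the minimum were Rpl31, Rpl29, Rps27rt, Rpl15, Rps19bp1 and Rpl36a, and since a low member passes more easily where it is high, the plain ratios of all 83 are also given. Their median was 1.47, from 0.727 to 2.37, and 75 had an interval above 1, 6 an interval that held 1 and 2 an interval below 1. Of the 16095 genes with at least 50 UMIs, 20.1% had an interval above 1 and 38.1% below.

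The count was much smaller among deeper nuclei. With only nuclei of at least 1600 UMIs in each library, 9 of 70 members were at least 1.5-fold higher, or 12.9%, beside 5.51% of all genes. With at least 3000 UMIs it was 7 of 67, or 10.4%, beside 6.2%. With nuclei thinned to 1000 UMIs it was 77 of 79, beside 8.52%. Without centring on the median gene it was 29 of 77, beside 3.54%.

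By subunit, 21 of 32 small-subunit and 35 of 45 large-subunit members were at least 1.5-fold higher for scopolamine against control. The 4 members that stood highest against the other members were Rps29, Rpl23, Rps23 and Rpl37a. Rps29 had 39.9 CPM in control and 94.8 in scopolamine, a ratio of 2.37 (95% interval 2.19 to 2.57). Rps23, a protein of the decoding centre, had 35.0 and 78.5, a ratio of 2.24. Rpl23 had 44.9 and 99.99, a ratio of 2.22, and Rpl37a had 61.3 and 133, a ratio of 2.17.

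The 4 lowest were Rps27l, Rpl7l1, Rpl10a and Rpl22. Rps27l, a stress-inducible paralogue of Rps27, had 38.3 CPM in control and 28.0 in scopolamine, a ratio of 0.731 (95% interval 0.656 to 0.814). Rpl7l1 had 25.2 and 18.4, a ratio of 0.727 (0.636 to 0.831). Relative to the median gene these 2 stood close to level, at log2 ratios of -0.12 and -0.10. Rpl10a had 46.9 and 47.2 CPM, and Rpl22, known for a role in T cell development, had 39.7 and 41.9, both with intervals that held a ratio of 1.

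Between tamsulosin and scopolamine, 53 of 81 members in acinar-like nuclei were at least 1.5-fold higher and 0 lower, beside 2.5% and 0.365% of 5472 genes. Rps27rt and Rps19bp1 were under the minimum. The plain ratios of the 83 members had a median of 1.52 and ran from 1.01 to 1.96, and 81 had an interval above 1 and 0 below, beside 8.41% and 28.2% of the 16095 genes. With nuclei of at least 1600 UMIs the count was 78 of 81, beside 3.58%, with at least 3000 UMIs 75 of 80, beside 3.45%, and with nuclei thinned to 1000 UMIs 35 of 80, beside 3.34%. Without centring it was 32 of 81, beside 1.64%. Small-subunit members gave 25 of 32 and large-subunit members 28 of 49.

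Rps24 stood highest against the other members, with 107 CPM in scopolamine and 201 in tamsulosin, a ratio of 1.88 (95% interval 1.78 to 1.99). Rpl39, at the exit tunnel of the large subunit, had 35.8 and 70.0, a ratio of 1.96. Rpl30 had 47.1 and 88.8, and Rps20 had 61.7 and 114, ratios of 1.88 and 1.85. Lowest were Rps19bp1 with 3.55 and 3.60 CPM, Rpl8 with 67.7 and 76.3, Rpl36al with 73.8 and 83.7, and Rpsa, also known as a laminin receptor, with 46.8 and 53.7. The 4 members that stood highest in scopolamine against control were all under the median of 1.52 here, with ratios of 1.47 for Rps29, 1.501 for Rpl23, 1.36 for Rps23 and 1.22 for Rpl37a. These comparisons share the scopolamine library.

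Tamsulosin against control, which shares a library with each of the comparisons above, had 78 of 80 members at least 1.5-fold higher and 0 lower, beside 8.72% and 3.78% of 5689 genes. The plain ratios had a median of 2.20. Rpl7l1 was the lowest, at 22.4 CPM in tamsulosin and 25.2 in control, a ratio of 0.889 (95% interval 0.780 to 1.01).

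**Figure D4:**
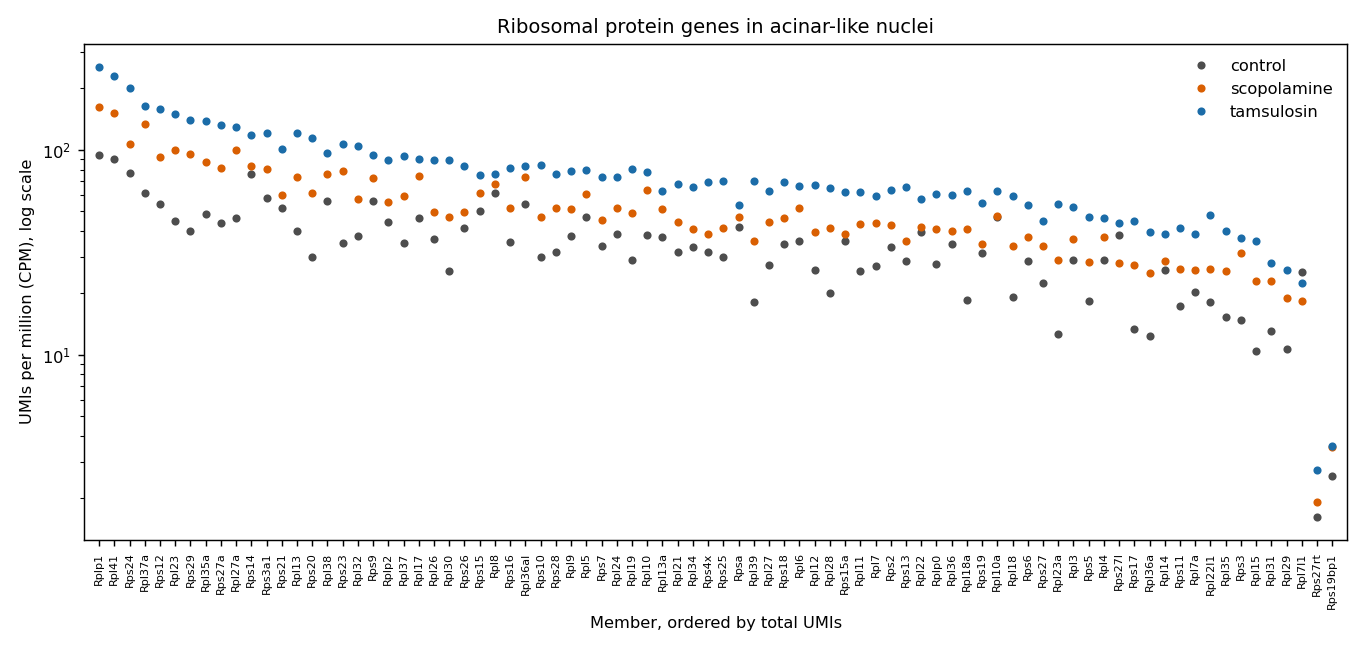
Level of 82 of the members in acinar-like nuclei of the 3 libraries in CPM (log axis), ordered by total UMIs over all nuclei, with 1 point for each library. Rplp1 leads with 93.9, 162 and 255 CPM, and at the right end Rpl7l1 has its highest point in control and Rps27rt and Rps19bp1 lie under 4 CPM.

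In the other classes the difference between tamsulosin and scopolamine took in nearly every member that passed the 20 CPM minimum. In myoepithelial-like nuclei 80 of 80 were at least 1.5-fold higher (background 11.7% higher and 9.19% lower). Cluster 6 had 80 of 80 (15.6% and 8.69%), macrophage-like nuclei 77 of 81 (6.63% and 3.9%) and the T or NK-like class 68 of 81 (11.6% and 6.62%). No member was lower by that much in any of these 4 classes.

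For scopolamine against control the classes were less alike. Myoepithelial-like nuclei had 41 of 78 members higher (background 9.87%) and 0 lower (7.78%), and cluster 6 had 12 of 69 higher (8.66%) and 0 lower (5.9%). The T or NK-like class had 58 of 78 higher (16.4%) and 1 lower (13.9%). Macrophage-like nuclei had 16 of 80 higher (9.71%) and 5 lower (8.36%), and 49 of 77 higher (10.3%) without the nuclei of at least 4% ribosomal protein UMIs.

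With only nuclei of at least 1600 UMIs, myoepithelial-like nuclei had 40 of 78 members higher (9.58%) and the T or NK-like class 42 of 75 (16.2%). Cluster 6 had 8 of 69 (8.54%) and macrophage-like nuclei 7 of 80 (10.1%), with the control barcode of 5959 UMIs still among them. The decrease seen in acinar-like nuclei at this depth, from 56 of 77 to 9 of 70, was not seen in the myoepithelial-like count. Scopolamine medians were 1257 UMIs in acinar-like and 2860 in myoepithelial-like nuclei, so this minimum removed a smaller part of the latter. By depth range, the summed share of myoepithelial-like nuclei also changed. Scopolamine over control was 1.45 at 1500 to 2000 UMIs, 1.12 at 5000 to 10000 and 0.934 (interval 0.885 to 0.985) at 10000 or more. In cluster 6 these ratios were 1.81, 1.18 and 0.747. Differences between classes were not tested.

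Paralogue pairs split their UMIs differently in the libraries. Rpl7l1 took 46.0% of the UMIs of the pair Rpl7 and Rpl7l1 in control (95% interval 43.6 to 48.4%), 27.0% in scopolamine and 16.6% in tamsulosin. Over all kept nuclei Rpl7 went from 29.1 to 44.3 and 78.9 CPM, and Rpl7l1 from 24.8 to 16.4 and 15.7. Rps27l took 61.0%, 43.1% and 42.0% of its pair with Rps27, and Rpl36al took 79.6%, 71.2% and 62.3% of its pair with Rpl36a. Rpl22l1 went the other way, with 31.8%, 38.6% and 41.5% of its pair with Rpl22. Rpl3l and Rpl39l stayed under 1% of their pairs in each library, and Rpl10l had 0 UMIs beside 7328 of Rpl10, which allows a share of up to 0.0503%. Similar copies can share reads, and how alike each pair is was not measured, so the split within a pair is uncertain.

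Other genes of translation stood far closer to the median gene than the members in acinar-like nuclei. For scopolamine against control, 0 of 24 measured initiation genes (34 listed) were at least 1.5-fold higher and 1 was lower, with a median log2 ratio of -0.17. Of 16 measured ribosome biogenesis genes (33 listed) 0 were higher or lower, with a median of -0.16, and of 9 measured mitochondrial ribosomal protein genes (78 listed) 0 were, with a median of -0.19. The median of the members was 0.76. Pabpc1, the poly(A)-binding protein, had 438, 408 and 406 CPM in control, scopolamine and tamsulosin, and Eif4g3, an initiation scaffold, had 347, 275 and 272. Mdn1 and Nop58, which act in ribosome assembly, had 88.0, 65.9 and 76.6 CPM and 70.9, 47.7 and 50.9. Of the mitochondrial ribosome, Mrps28 had 216, 133 and 120 CPM and Mrps9 had 65.1, 51.2 and 47.7. For tamsulosin against scopolamine the counts of these 3 lists were 0 of 24, 0 of 15 and 0 of 6 higher, with medians of 0.14, 0.15 and 0.01, where the members had 0.67. In that comparison 20 of 24, 15 of 15 and 3 of 6 of them stood above the median gene, so the initiation and biogenesis lists lay on the same side as the members, by less.

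The elongation list, which also holds Tpt1, was in between in acinar-like nuclei. Its median log2 ratios were 0.39 for scopolamine against control and 0.41 for tamsulosin against scopolamine. For scopolamine against control 1 of 7 measured genes was higher, and this was Tpt1. For tamsulosin against scopolamine 2 of 7 were higher, with Tpt1 the highest. Eef1a1, which brings aminoacyl-tRNA to the ribosome, had 123, 150 and 189 CPM. Tpt1, whose mRNA also begins with a pyrimidine run, had 58.6, 112 and 191. Of the genes for fusion and associated proteins, Fau had 40.5, 71.9 and 107 CPM, and Naca, part of the nascent chain complex, had 78.6, 58.4 and 72.5. This list had 1 of 4 measured genes higher in each of these comparisons.

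Of the mTORC1 and S6 kinase list, 0 of 10 measured genes were higher in either comparison, and 1 was lower for scopolamine against control. Rps6kb1, which phosphorylates Rps6, had 501, 339 and 349 CPM, and Rps6ka3 had 244, 249 and 209. Rps6 itself had 28.8, 37.6 and 53.6. Of the small nucleolar RNA hosts, 0 of 4 were higher or lower in either comparison, and Snhg20 had 55.1, 64.2 and 51.6 CPM and Gas5 had 51.8, 34.8 and 37.8.

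In acinar-like nuclei, lists of other cytoplasmic mRNA stood higher as well. For scopolamine against control, 8 of 12 measured mitochondrially encoded genes, 12 of 14 secretory genes and 4 of 8 short abundant cytoplasmic mRNAs stood 1.5-fold higher or more, with median log2 ratios of 0.84, 1.91 and 0.66. For tamsulosin against scopolamine these were 11 of 12, 8 of 14 and 3 of 12. Other classes differed for the mitochondrially encoded genes in scopolamine against control. In myoepithelial-like nuclei 0 of 13 of them were higher and 1 was lower, with a median log2 ratio of -0.11, where 41 of 78 members were higher. In macrophage-like nuclei 1 of 12 was higher and 1 lower, and in T or NK-like nuclei 2 of 13 were higher.

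The leading genes of these lists had the following levels in acinar-like nuclei. mt-Co3 had 285, 383 and 725 CPM and mt-Co1 had 254, 400 and 694, while Mucl2 had 18964, 63029 and 82310 and Obp1a had 15052, 51161 and 62061. Of the short mRNAs, Itm2b had 138, 172 and 162 CPM and Serf2 had 66.3, 80.0 and 102. Of nuclear genes for oxidative phosphorylation, 1 of 15 and 2 of 17 were higher, with Sdha at 84.2, 71.2 and 65.6 CPM and Atp5c1 at 70.3, 62.3 and 63.6. Of the nuclear retained RNA list, 0 of 6 were higher in either comparison and 1 was lower for scopolamine against control. The 1 lower was Gm42418, a locus that overlaps ribosomal RNA sequence, at 13266, 3286 and 2640 CPM. Malat1 stood at 31080, 37940 and 26487 CPM.

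Short genes that are not members moved in the same direction, by less. For scopolamine against control, 429 non-member genes under 10 kb in acinar-like nuclei had a median log2 ratio of 0.16 relative to all genes, and 2601 genes of 50 kb or more had -0.01, while the median of the 77 members was 0.76. For tamsulosin against scopolamine the values were 0.14, -0.05 and 0.67. Among the short genes, 21.4% and 11.7% stood at least 1.5-fold higher. Members with CTTTC at the start had median log2 ratios of 0.81 (15 members) and 0.70 (16 members) in these comparisons, and matched members without it 0.67 (43) and 0.62 (45), with quartiles that overlapped. Members with and without CCGGAAG had 0.68 and 0.71, and 0.67 and 0.61. What these properties had to do with the differences was not tested.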

How the data were processed

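The deposited matrices hold unnormalized UMI counts from Cell Ranger 5.0.0 and mm10, per the submitters' processing notes. Whether intronic reads were counted was not given in the sources used here. Barcodes with at least 500 UMIs, at least 300 genes and at most 5% mitochondrial UMIs were kept. Scrublet marked under 0.5% of each library, so nuclei with top scores were left out at a rate of 0.8% per 1000 nuclei (414, 801 and 1156). With scanpy 1.11.5, nuclei were clustered on 2000 variable genes without the members, mitochondrial genes, Malat1 and Neat1 (30 components, 15 neighbours, Leiden resolution 1), with no integration, and clusters were named from fixed markers. Low-complexity clusters had under 350 genes in 1000 UMIs. The authors' counts were summed per library and class. Shares have exact Clopper-Pearson and ratios exact binomial intervals (95%). Libraries hold 33500727, 35237256 and 57969348 UMIs. The calculation was tested on simulated data. Members, gene lists and tests were chosen with earlier results of these data known. Named members are the 10 with the most UMIs, in the acinar-like class the 4 at each end of both consecutive comparisons against the other members (at least 100 UMIs), those next to the 50 UMI minimum, paralogue pairs, any with a class at 3 times the median class, the 2 leading genes of each list, Malat1 and Neat1. Alternatives covered depth, nucleus filters, doublets, scaling, pseudocount, member minimum and resolution, and 3 were added after seeing the data. The values of 1 member are not reported here.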

Additional observations from a re-analysis of the deposited data

How the results depend on the processing

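No paired analysis was possible because each group has 1 library. The order control, scopolamine, tamsulosin of the shares over all kept nuclei held under every setting run. With nuclei thinned to 1000 UMIs the ribosomal protein shares were 0.333%, 0.632% and 1.12%. At most 1% mitochondrial UMIs gave 0.295%, 0.424% and 0.756%, and totals without the secretory list gave 0.326%, 0.592% and 1.251%. At least 1600 UMIs gave 0.361% in scopolamine and 0.823% in tamsulosin, at least 1000 UMIs and 500 genes 0.421% and 0.820%, and doublets kept 0.444% and 0.832%. Chosen after seeing the data, leaving out low-complexity barcodes gave 0.299%, 0.432% and 0.773%, at least 3000 UMIs gave 0.296%, 0.325% and 0.674%, and leaving out nuclei of at least 4% ribosomal protein UMIs gave 0.300%, 0.435% and 0.833%.

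The 56 members at least 1.5-fold higher for scopolamine against control in acinar-like nuclei became 9 with at least 1600 UMIs, 7 with at least 3000 and 29 without centring. The 53 for tamsulosin against scopolamine became 35 with thinned nuclei and 32 without centring. A pseudocount of 1 CPM, a member minimum of 500 UMIs and clustering at resolution 2 kept both counts within 1.5 times. With at least 3000 UMIs the summed share in scopolamine was 1.01 times that of control in acinar-like nuclei, in place of 1.497, and 1.04 times in T or NK-like nuclei, in place of 1.67. The log2 ratio of the summed share for scopolamine against control turned to -0.060 in cluster 6 nuclei of at least 3000 UMIs. In macrophage-like nuclei it turned to -0.17 with at least 1600 UMIs, -0.77 with at least 3000 and -0.000699 with at most 1% mitochondrial UMIs. The control barcode with 30.1% ribosomal protein UMIs passes these settings. The cause was not tested. Empty droplets were not used here, so free RNA was not measured directly, and 1 library for each group leaves library and treatment impossible to tell apart.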
